A study of Mus musculus with 10 samples.

Results

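Hexose uptake and fructose use by the absorptive cells of the small intestine are described here through 8 genes, taken by name: *Slc5a1*, *Slc2a2*, *Slc2a5*, *Slc2a7*, *Khk*, *G6pc*, *Fbp1* and *Mlxipl*. These genes were chosen with earlier results of these data known, so how many of them changed is only a description. All 8 were found by symbol among the 35275 gene IDs that each library holds. Gene expression was profiled by RNA-seq in tissue labelled as proximal intestine from 5 KO and 5 WT mice labelled as 8 to 10 weeks old, with 1 library per mouse and no treatment other than the genotype. The position markers of the 5 KO libraries went against this tissue label, with proximal markers low and ileal markers high, as given below. KO stands for deletion of *Zip14* (*Slc39a14*), a transporter of zinc and other metals. The study describes the sequenced mice as whole-body knockouts and their controls as WT mice of the same strain from matings between heterozygotes, whereas the series title speaks of an enterocyte-specific deletion and the labels give only KO. Which of the deletions these libraries carry was not resolved here. Both sexes were used in the study, all mice ate the same commercial diet, and the sex of each mouse is not in the labels. No library held more than 1 count of any of 4 Y-linked genes. The total count per library was between 16729787 and 20819678 in WT and between 17118742 and 19414828 in KO mice.

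Dietary glucose and galactose enter the enterocyte through SGLT1, the sodium-coupled carrier of the brush border encoded by *Slc5a1*, and fructose enters through GLUT5, encoded by *Slc2a5*. GLUT2, encoded by *Slc2a2*, lets all of these sugars leave on the blood side, and GLUT7, encoded by *Slc2a7*, is a close relative of GLUT5. Inside the cell ketohexokinase (*Khk*) phosphorylates fructose, further enzymes including triokinase break it down, and fructose-1,6-bisphosphatase (*Fbp1*) and glucose-6-phosphatase (*G6pc*) can turn the products into free glucose. *Mlxipl* encodes ChREBP, a transcription factor that is activated by sugar metabolites and is required for the response of the gut to fructose.

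All 8 genes were lower in KO than in WT mice, with log2 fold changes from -4.89 to -1.31 and a median of -1.86. Each passed edgeR's quasi-likelihood test at an adjusted p under 0.05 over all 15610 genes tested. The difference was largest for *Slc2a2*, whose WT mean was 29.65 times the KO mean, and for *Slc2a7*, at 22.4 times. Of all genes tested 29.9% passed in either direction, 13.9% as lower and 16.0% as higher, and the median log2 fold change over all of them was 0.03. *Slc2a2*, *Slc2a5* and *Slc2a7* were lower by at least 2 on the log2 scale, which 1.53% of the tested genes also were. In 7 of the 8 genes, all but *G6pc*, every KO library was below every WT library, as in 10.8% of the genes tested, and in none was every KO library above every WT library, as in 10.2%.

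Promoter sequences are shown for the 4 genes that held an E box or an HNF1 motif among the letters searched. The windows are those of RefSeq on GRCm38.p6 and run from 250 bases before to 50 bases after the annotated start, which may lie apart from the first base of the GENCODE gene. All 8 genes had a window, and positions are counted from the start, with bases before it negative. The stretches lie at chr5:33104036-33104121 for *Slc5a1*, chr5:30921448-30921544 for *Khk*, chr11:101367466-101367732 for *G6pc* and chr5:135089752-135089837 for *Mlxipl*, all on the plus strand and written 5′ to 3′. Capitals mark the matched motifs.
Slc5a1: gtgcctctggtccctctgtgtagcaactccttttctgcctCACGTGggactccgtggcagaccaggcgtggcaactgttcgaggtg
Khk: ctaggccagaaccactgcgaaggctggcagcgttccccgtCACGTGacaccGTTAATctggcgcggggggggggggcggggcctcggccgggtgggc
G6pc: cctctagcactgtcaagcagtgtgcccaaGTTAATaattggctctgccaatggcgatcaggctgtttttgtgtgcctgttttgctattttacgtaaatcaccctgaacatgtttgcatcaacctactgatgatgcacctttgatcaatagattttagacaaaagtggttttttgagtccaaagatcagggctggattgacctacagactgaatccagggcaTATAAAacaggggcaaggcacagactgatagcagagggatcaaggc
Mlxipl: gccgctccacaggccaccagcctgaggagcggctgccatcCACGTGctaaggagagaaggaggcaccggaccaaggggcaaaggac

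Exact matches were searched on both strands. The E box CACGTG, a core that ChREBP and many other factors can bind, stood at -143 in *Slc5a1*, -71 in *Khk* and -98 in *Mlxipl*, and in 7.15% of all 32851 promoter windows. The HNF1 motif GTTAAT stood at -60 in *Khk* and -221 in *G6pc*, and in 7.1% of all windows. *G6pc* also held the TATA box TATAAA at -29, as did 13.6% of all windows. The GATA motif AGATAA was found at -116 in *Fbp1* and in 11.2% of all windows. The CDX motif TTTATNG, found in 10.9% of all windows, and the HNF4 motif CAAAGTCCA, found in 0.475%, had no match in any of the 8 windows. None of these exact letters were in the windows of *Slc2a2*, *Slc2a5* or *Slc2a7*, the genes that fell furthest, and no match overlapped another. Other spellings that the same factors may bind were not searched, so a window without a match may still hold such a site.

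The deleted gene and the cell makeup of the libraries were examined before the values of single genes. *Slc39a14* had 260.4 ± 62.5 CPM in WT and 102.4 ± 32.9 CPM in KO mice (SD, n = 5 each), where CPM is the count scaled to a common library size with TMM factors, and its log2 fold change was -1.35 (SE 0.22, adjusted p = 0.00184 by edgeR). Reads from exons outside a deletion are part of this count. The summed CPM of 10 enterocyte markers was between 34227 and 47864 in WT and between 15351 and 34062 in KO libraries, with 6 of 10 lower and none higher. The 10 markers of proximal small intestine summed to between 5708 and 8869 CPM in WT and between 210.3 and 1330 CPM in KO libraries, and 5 of the 8 tested were lower. The 8 markers of ileum summed to between 512.3 and 700.5 CPM in WT and between 4433 and 11926 CPM in KO libraries, with 7 higher and 1 lower. *Fabp6*, the bile acid binding protein of ileal enterocytes, had 0.779 ± 0.607 CPM in WT and 5515 ± 2861 CPM in KO mice. In these libraries genotype and position along the intestine cannot be told apart, and each difference below is one between libraries that also differ in these markers. The 10 smooth muscle markers summed to between 1626 and 2659 CPM in WT and between 3598 and 10438 CPM in KO libraries, highest in KO replicate 4, and 9 of 10 were higher. The 12 epithelial reference genes also summed higher in KO, between 13170 and 18086 CPM against between 9940 and 11954 CPM, with 7 of 11 tested higher and none lower. The part of these shifts in the results was not tested. The smooth muscle score and the epithelial scaling given below cannot measure it, since both lists differ between the groups without overlap. KO replicates 1 and 2 held more of the proximal markers than the other KO libraries, with 1330 and 662.8 CPM against at most 364.3 CPM. Of 8 colon markers 3 passed the filter and all 3 were higher. KO replicate 2 held 1338 CPM of them in all, 1172 CPM of it *Car1*, while the other KO libraries held between 52.1 and 66.6 CPM and the WT libraries between 23.9 and 60.3 CPM, so that these ranges overlapped. Goblet and Paneth cell markers were higher in 4 of 10 genes, crypt markers in 1 of 8, and immune cell markers were lower in 1 of 10, and the summed levels of these lists overlapped between the groups. Of the 4 liver markers tested 1 was lower and 1 higher. The lower one was *Cps1*, which enterocytes also express, with 892.6 ± 136.1 CPM in WT and 414.6 ± 148 CPM in KO mice (log2 fold change -1.11, adjusted p = 0.00926 by edgeR). It made up most of the summed liver markers, which were between 711.8 and 1022 CPM in WT and between 196.6 and 599.9 CPM in KO libraries. The higher one was *Apoh*, with 0.907 ± 0.254 and 3.18 ± 3.40 CPM and overlapping groups. Apart from *Cps1*, no marker of liver, pancreas or stomach exceeded 16.63 CPM, and *Amy2a5* was at 0 in all libraries. In bulk tissue, fewer enterocytes and less RNA of a gene per enterocyte cannot be told apart.

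**Figure D1:**
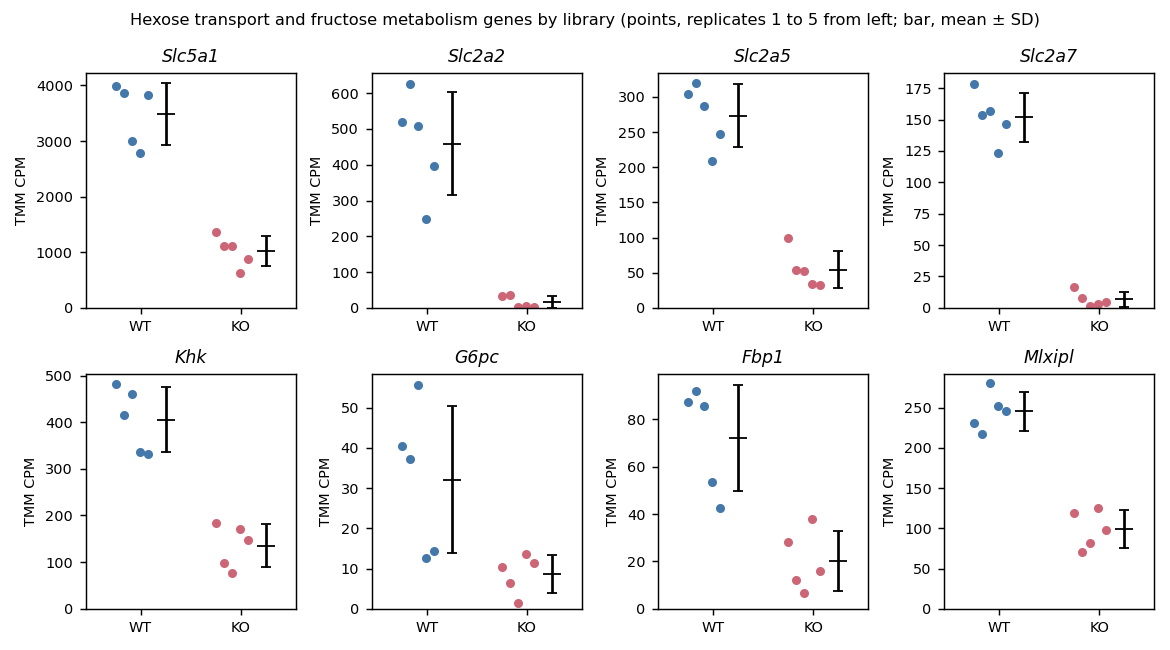
TMM CPM (y axis) of each of the 8 genes in the 5 WT (blue) and 5 KO (red) libraries, with the mean and SD of each group beside the points. All KO points lie below all WT points except in *G6pc*, where KO replicate 4 lies above WT replicate 4.

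The brush border carriers were measured first. *Slc5a1* (ENSMUSG00000011034, GRCm38 chr5:33104219-33162870, plus strand) had 3992, 3861, 2995, 2779 and 3822 CPM in WT replicates 1 to 5 and 1367, 1113, 1106, 631.3 and 884.9 CPM in KO replicates 1 to 5. All WT libraries stood above all KO libraries, and KO replicate 4 was the lowest. The means were 3490 ± 559 and 1021 ± 276.5 CPM (SD, n = 5 each), and the log2 fold change was -1.77 (SE 0.21, adjusted p = 0.000433 by edgeR). The gene thus remained counted at 631.3 CPM or more in every KO library. It overlaps *Gm15936* and *5033423K11Rik*, whose counts over the 5 WT libraries, 236 and 85, were small beside the 307583 of *Slc5a1*.

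*Slc2a5* (ENSMUSG00000028976, chr4:150119283-150144169, plus strand), the fructose carrier, had 303.7, 319.1, 287.1, 208.7 and 247.8 CPM in WT and 98.6, 53.8, 51.8, 34.3 and 32.8 CPM in KO replicates 1 to 5. KO replicate 1 held the most of the KO libraries, less than the lowest WT library. The log2 fold change was -2.33 (SE 0.29, adjusted p = 0.000459 by edgeR), with means of 273.3 ± 44.9 and 54.2 ± 26.6 CPM.

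*Slc2a7* (ENSMUSG00000062064, chr4:150148972-150168482, plus strand) lies 4802 bases downstream of *Slc2a5* on the same strand. Its levels were 178, 153.5, 157, 123.5 and 146.7 CPM in WT and 16.6, 8.03, 1.78, 3.19 and 4.25 CPM in KO replicates 1 to 5. The WT libraries lay close together and the KO libraries spread widely around a mean of 6.76 ± 5.95 CPM, against 151.7 ± 19.6 CPM in WT. The log2 fold change of *Slc2a7* was -4.49 (SE 0.51, adjusted p = 0.000317 by edgeR), against -2.33 for its neighbour, and the difference between these changes was not tested. Without KO replicate 1 it was -5.14, the only change by a left-out library among the 8 genes that moved a fold change by over 1.5 times.

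The exit carrier gave the widest spread among the KO libraries on the log scale. *Slc2a2* (ENSMUSG00000027690, chr3:28697903-28731359, plus strand) had 520.3, 624.5, 506.9, 247.1 and 395.9 CPM in WT and 32.0, 35.4, 1.78, 6.43 and 1.84 CPM in KO replicates 1 to 5. KO replicates 1 and 2, the libraries with the most proximal markers among the KO group, held far more than the other 3, in which *Slc2a2* was close to absent with 33 to 135 counts. The means were 458.9 ± 143.5 and 15.48 ± 16.8 CPM, a log2 fold change of -4.89 (SE 0.86, adjusted p = 0.00262 by edgeR). It was -5.34 without KO replicate 1, -5.46 without KO replicate 2 and -5.70 with the replicate number as a block. The antisense gene *1700112D23Rik*, which overlaps *Slc2a2*, had 141 counts over the WT and 6 over the KO libraries, against 40066 and 1445 for *Slc2a2*, and no source used here says whether strand was used in counting.

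Among the enzymes, *Khk* (ENSMUSG00000029162, chr5:30921431-30931248, plus strand), which commits fructose to metabolism, had 482.7, 416.2, 460, 335.5 and 332.4 CPM in WT and 184.3, 97.3, 76.5, 171.5 and 146.8 CPM in KO replicates 1 to 5. The groups did not overlap, and KO replicates 2 and 3 were lowest. The means of 405.4 ± 69.5 and 135.3 ± 46.8 CPM gave a log2 fold change of -1.58 (SE 0.24, adjusted p = 0.0013 by edgeR).

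*Fbp1* (ENSMUSG00000069805, chr13:62864753-62888282, minus strand), the bisphosphatase of gluconeogenesis, had 87.3, 91.9, 85.8, 53.6 and 42.6 CPM in WT and 28.1, 12.2, 6.58, 37.8 and 16.2 CPM in KO replicates 1 to 5. Here the gap between the groups was narrow, with WT replicate 5 just above KO replicate 4. The means were 72.2 ± 22.5 and 20.2 ± 12.7 CPM, and the log2 fold change was -1.84 (SE 0.42, adjusted p = 0.00889 by edgeR).

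*G6pc* (ENSMUSG00000078650, chr11:101367561-101377903, plus strand), which releases free glucose and is known mainly from liver and kidney, had the lowest level per kb of the 8 in WT mice. It had 40.5, 37.2, 55.6, 12.6 and 14.5 CPM in WT and 10.3, 6.40, 1.51, 13.6 and 11.4 CPM in KO replicates 1 to 5. WT replicates 4 and 5 were at the level of the KO libraries, and 4 of 5 KO libraries lay below all WT libraries. The log2 fold change was -1.89 (SE 0.54, adjusted p = 0.024 by edgeR), and with an exact two-sided permutation test of the log2 CPM p was 0.0159, where 5 against 5 can reach 0.00794 at the lowest, as the other 7 genes did. The call of *G6pc* was lost when WT replicate 1, 2 or 3 or KO replicate 2 was left out, with adjusted p between 0.0502 and 0.0625 and log2 fold changes between -1.83 and -1.60. It was also lost with the replicate number as a block (-1.84, adjusted p = 0.106).

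*Mlxipl* (ENSMUSG00000005373, chr5:135089890-135138382, plus strand) had 230.8, 217, 280.9, 251.9 and 245.7 CPM in WT and 119.5, 70.9, 81.2, 125.1 and 98.2 CPM in KO replicates 1 to 5. Both groups were tight and far apart. The means were 245.3 ± 24.1 and 99.0 ± 23.5 CPM, with a log2 fold change of -1.31 (SE 0.16, adjusted p = 0.000447 by edgeR), the smallest fold change of the 8. The antisense gene *Gm43500* overlaps *Mlxipl* and is not among the counted IDs.

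Levels of different genes were compared per kb of merged exons. In WT mice *Slc5a1* had 850.3 ± 136.2 CPM per kb and *Khk* 225.6 ± 38.6, and each was above the next gene in all 5 libraries with no overlap. *Slc2a7*, *Slc2a5* and *Slc2a2* followed with 81.3 ± 10.5, 80.3 ± 13.2 and 79.8 ± 24.9 CPM per kb, and their ranges overlapped. *Mlxipl* (44.3 ± 4.35) and *Fbp1* (42.4 ± 13.2) also overlapped. *G6pc* was lowest with 13.3 ± 7.58 CPM per kb, below *Fbp1* with no overlap. In KO mice *Slc5a1* (248.6 ± 67.4 CPM per kb) and *Khk* (75.3 ± 26.0) remained apart from the rest. Below them came *Mlxipl* (17.9 ± 4.24), *Slc2a5* (15.9 ± 7.83), *Fbp1* (11.9 ± 7.43), *Slc2a7* (3.62 ± 3.19), *G6pc* (3.58 ± 1.98) and *Slc2a2* (2.69 ± 2.91), where each neighbour overlapped the next. The level of *Mlxipl* depended on the length used. Per kb of its longest principal transcript it had 67.7 in WT and 27.3 in KO mice, at the same place in either order, but was above *Slc2a5* in 5 of 5 KO libraries in place of 2 of 5, though the ranges still overlapped. On this scale *Slc2a7* and *Slc2a2* thus stood beside *Slc2a5* in WT mice, and their means were at the lower end of the order in KO mice.

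**Figure D2:**
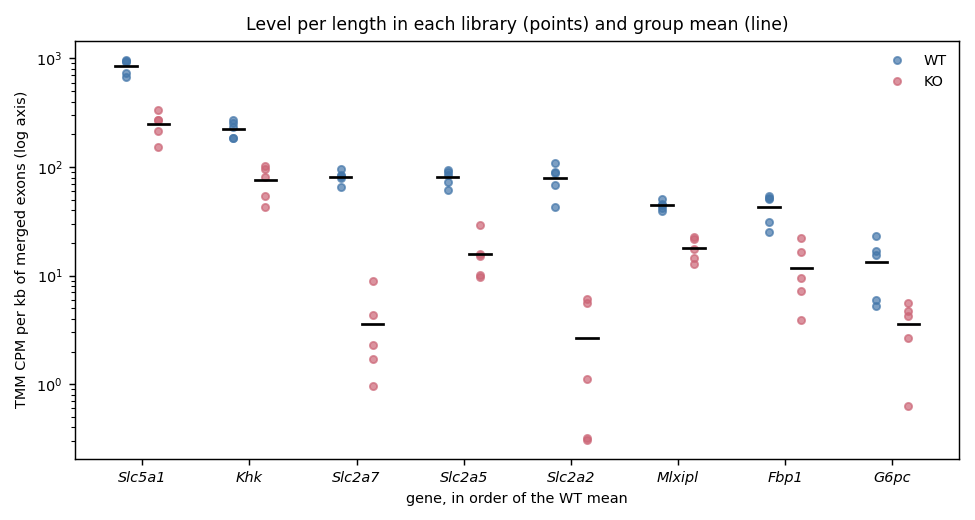
TMM CPM per kb of merged exons on a log axis (y) for the 8 genes in order of their WT mean (x), with a point for each WT (blue) and KO (red) library and a line at the group mean. *Slc5a1* is highest in both groups, and *Slc2a7* and *Slc2a2* drop from 81.3 and 79.8 to 3.62 and 2.69 CPM per kb.

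Ratios within a library do not depend on its scaling. The ratio of *Slc2a5* to *Slc2a2*, the fructose entry carrier to the exit carrier, was between 0.864 and 1.43 per kb in WT and between 2.57 and 49.2 in KO libraries, so that the groups did not overlap. *Slc2a2* relative to *Slc5a1* was between 0.0634 and 0.121 in WT and between 0.00115 and 0.0227 in KO libraries, again without overlap. The ratio of *Slc2a5* to *Slc5a1*, the fructose to the glucose carrier of the brush border, was 0.0782 to 0.116 in WT and 0.0447 to 0.0871 in KO libraries. Only KO replicate 1 reached the WT range, and the other KO libraries were at most 0.0655. In the ratio of *Slc2a5* to *Khk* (0.329 to 0.405 against 0.105 to 0.358) only KO replicate 3 reached the WT range, and the others were at most 0.292. The ratio of *G6pc* to *Fbp1* overlapped broadly (0.166 to 0.458 against 0.162 to 0.496). These ratios were chosen with the values known and were not tested.

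The 8 genes did not share one pattern over the libraries. After the mean of each gene over the 10 libraries was taken off its log2 CPM, *Khk* and *Mlxipl* were the closest pair of the 28, with a root mean square difference of 0.30, followed by *Slc5a1* and *Slc2a5* (0.41) and *Khk* and *Fbp1* (0.41). *Slc2a2* and *Mlxipl* were the farthest apart (2.63). *Slc2a2* was nearest to *Slc2a7* among the members, at 0.94. KO replicate 1 was the highest KO library in *Slc5a1*, *Slc2a5*, *Slc2a7* and *Khk*, KO replicate 2 in *Slc2a2*, and KO replicate 4 in *G6pc*, *Fbp1* and *Mlxipl*. WT replicates 4 and 5 were the lowest WT libraries in *Slc2a2*, *Slc2a5*, *Slc2a7*, *Khk*, *G6pc* and *Fbp1*, and not in *Slc5a1* or *Mlxipl*.

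**Figure D3:**
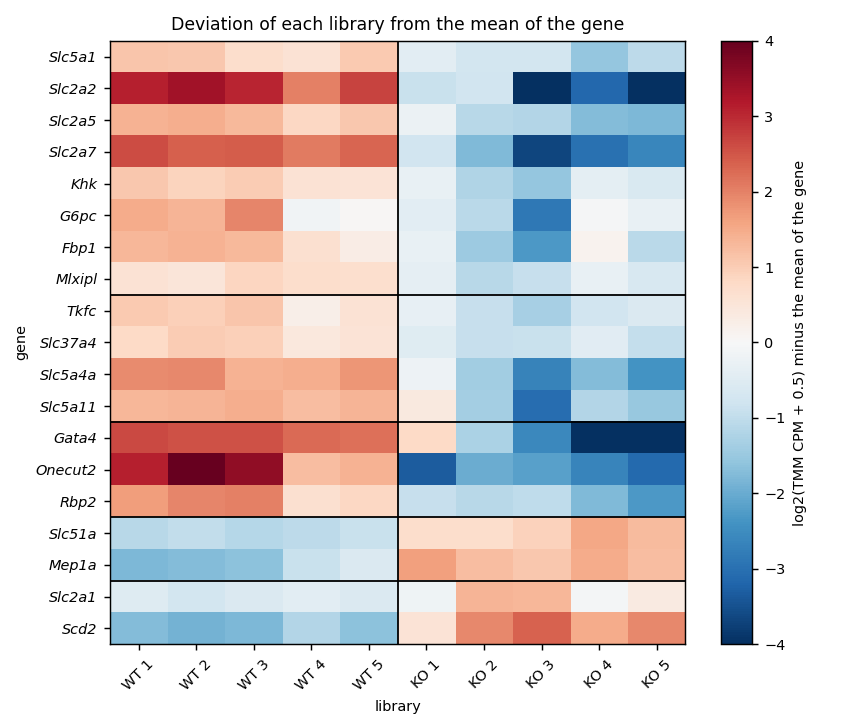
Log2 of TMM CPM plus 0.5, less the mean of the gene over the 10 libraries (colour, red above and blue below the mean, cut at 4 and -4), for the 8 genes, 4 genes of the hexose pathways, 3 genes of the proximal intestine, 2 of the ileum and 2 that were higher in KO (rows) in each library (columns). KO replicates 1 and 2 are paler than KO replicates 3 to 5 in *Slc2a2*, *Slc2a7* and *Gata4*, and the WT columns are above the mean in nearly every row of the 8 genes.

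Among all tested genes, those with the profile most like a member were found by the same root mean square difference over the 10 libraries, which rests on the large difference between the groups as well as on the spread within them. For *Slc5a1* these were *Osbpl3* (0.24), *Heatr5a* (0.24) and *Tmem263* (0.24). The nearest to *Slc2a5* were *Entpd7* (0.17), *Spns2* (0.18) and *Il33* (0.25), and those nearest to *Slc2a7* were *Hsd17b6* (0.46), *Nr1i3* (0.50) and *Slc4a5* (0.60). *Slc2a2* had *Enpp3* (0.53), *Apoa4* (0.60), the apolipoprotein of chylomicrons, and *Acot12* (0.65). For *Khk* they were *Agmo* (0.20), *Tkfc* (0.20), the triokinase of the same pathway, and *Marc2* (0.21). *Fbp1* was nearest to *Fam183b* (0.34), *Faah* (0.35) and *Hnf4aos* (0.37), and *G6pc* to *Hsf5* (0.47), *Fam183b* (0.50) and *Fbp1* (0.50). *Mlxipl* had the closest companions of all 8, *Hinfp* (0.13), *Smim24* (0.15) and *Galm* (0.18), the mutarotase of galactose use. For comparison, the median difference over all genes was between 0.77 for *Mlxipl* and 3.23 for *Slc2a2*.

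The other genes of hexose handling did not all fall. Of 94 genes in 9 lists, 89 were tested, of which 28 were lower, 21 were higher and 40 were not called, with a median log2 fold change of -0.09. Scaled to the epithelial reference genes, 43 were lower and 11 higher. Of all genes tested 45.4% were lower and 4.59% higher under that scaling, in place of 13.9% and 16.0%, so that each count under it is to be read against these shares. Of 5 tested genes of fructose breakdown past ketohexokinase and of the polyol pathway, 2 were lower, 1 was higher and 2 were not called, against 3 lower and none higher when scaled to the epithelial reference genes. *Tkfc*, which encodes triokinase, had 630.2, 587.3, 648.1, 355.7 and 449 CPM in WT and 242.6, 159.7, 120.3, 178.1 and 201.7 CPM in KO replicates 1 to 5. The groups did not overlap, and *Tkfc* fell by 1.57 on the log2 scale, from 534.1 ± 126.6 to 180.5 ± 45.8 CPM (adjusted p = 0.000844 by edgeR). *Glyctk*, the glycerate kinase, fell from 6.48 to 3.12 CPM, while *Akr1b3*, the aldose reductase of the polyol pathway, rose from 23.7 to 36.0 CPM (log2 fold change 0.60), but was at 0.17 and not called when scaled to the epithelial reference genes (adjusted p = 0.395 by edgeR). *Sord*, which makes fructose from sorbitol, had 373.9 and 316.6 CPM and was not called, but was called lower under that scaling (-0.67, adjusted p = 0.0269). *Aldh1b1* was not called under either.

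The other sodium-coupled carriers were lower in 4 of the 5 genes tested, with a median of -2.31, and none was higher. *Slc5a4a* had 146.8 ± 24.5 CPM in WT and 16.7 ± 13.2 CPM in KO mice (log2 fold change -3.13, adjusted p = 0.00085 by edgeR), and -3.72 without KO replicate 1. *Slc5a9*, a mannose carrier, had 77.0 ± 7.21 and 31.1 ± 8.76 CPM (-1.31, adjusted p = 0.00073). *Slc5a11*, a carrier of inositol, had 162.5 ± 9.04 and 32.8 ± 29.0 CPM (-2.31, adjusted p = 0.00615), with 82.6 CPM in KO replicate 1 and at most 27.7 CPM in the other KO libraries. Without KO replicate 1 it stood at -3.00, with an adjusted p of 0.000174 by edgeR. *Slc5a4b* fell by 2.86 on the log2 scale (adjusted p = 0.0339), but its KO mean of 40.4 CPM came mostly from KO replicate 1 with 155.3 CPM. Its call was lost in 8 of 10 fits with a library left out, and its log2 fold change was -4.64 without KO replicate 1. *Slc5a4a* and *Slc5a4b* are close paralogs between which reads may be split.

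Of the other facilitative carriers 4 of 9 were higher, 1 was lower and 4 were not called, with a median log2 fold change of 0.59, and of 0.17 when scaled to the epithelial reference genes. *Slc2a1*, which encodes the widely expressed GLUT1, rose from 14.3 ± 1.19 to 35.1 ± 18.4 CPM, or 2.46 times (adjusted p = 0.0104 by edgeR). *Slc2a4*, the insulin-responsive carrier of muscle and fat, rose from 10.5 ± 2.82 to 33.3 ± 20.8 CPM (log2 fold change 1.66, adjusted p = 0.00669), and *Slc2a13*, an inositol carrier, from 2.71 ± 0.962 to 9.99 ± 1.39 CPM (log2 fold change 1.87, adjusted p = 0.0005). Smooth muscle markers were higher in the same KO libraries, and their part in these rises was not tested, since the covariate given below cannot measure it. *Slc2a9*, a carrier of urate, was the lower one, with 70.4 ± 7.04 and 45.1 ± 13.2 CPM (-0.64, adjusted p = 0.0176).

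In gluconeogenesis and glucose release 2 of 8 genes were lower and 2 higher, against 3 lower and none higher when scaled to the epithelial reference genes. *Slc37a4*, the carrier that brings glucose 6-phosphate to *G6pc*, had 114, 131.9, 124.7, 86.1 and 94.5 CPM in WT and 45.9, 33.8, 34.6, 47.0 and 33.5 CPM in KO replicates 1 to 5. The groups were well apart, and the log2 fold change was -1.50 (SE 0.15, adjusted p = 0.000187 by edgeR). *Fbp2*, the second bisphosphatase gene, fell by 0.68 on the log2 scale (304.1 ± 20.3 to 190 ± 58.8 CPM, adjusted p = 0.0228). *Slc37a1* rose by 0.56 (adjusted p = 0.00504), and *Pck2*, the mitochondrial carboxykinase, by 0.38 (adjusted p = 0.0126). When counts were scaled to the epithelial reference genes neither was called, with 0.11 for *Slc37a1* (adjusted p = 0.419) and a turned direction of -0.05 for *Pck2*. *Pck1*, which encodes the cytosolic enzyme, had 316.9 ± 171.8 and 124.8 ± 71.6 CPM and was not called (-1.34, adjusted p = 0.0716), but was called lower under that scaling (-1.81, adjusted p = 0.0172).

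Galactose breakdown was lower in 3 of 6 genes, *Galm* (230 ± 17.6 to 98.0 ± 22.3 CPM, log2 fold change -1.23, adjusted p = 0.000378 by edgeR), *Pgm2* (-0.84) and *Galk1* (-0.75). None of these 6 was called higher, 4 were lower after RLE normalization (14.3% of all genes tested) or by DESeq2 (14.5%), and all 6 were lower when scaled to the epithelial reference genes (median -1.09). Of 24 genes of glycolysis 8 were lower and 5 higher with a median of -0.35, and 14 were lower and 3 higher under the epithelial scaling, with a median of -0.82 where all genes had -0.42. *Pkm*, which encodes pyruvate kinase, fell from 1140 ± 182.9 to 598.3 ± 87.8 CPM (-0.93, adjusted p = 0.0018), and *Tpi1* (-0.50) and *Hkdc1* (-0.65) also fell. *Aldoa*, a glycolytic enzyme of muscle and many other tissues, rose from 425.6 ± 48.5 to 693.1 ± 151.2 CPM (0.70, adjusted p = 0.0109), but was at 0.27 and not called when scaled to the epithelial reference genes (adjusted p = 0.287). *Ldha* and *Gapdh*, with the highest counts of the list, were not called (-0.27 and -0.43), but both were called lower under that scaling, at -0.72 (adjusted p = 0.00789) and -0.90 (adjusted p = 0.00534).

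Partners and known targets of ChREBP went both ways, with 7 of 15 higher, 4 lower and a median of 0.86. When scaled to the epithelial reference genes 3 were higher and 5 lower, while library size scaling gave 8 and 2. The list leaves out the 8 genes, all of which were lower. It also leaves out *Pklr*, which is in the glycolysis list (8 lower, 5 higher) and was lower (-0.71, adjusted p = 0.017 by edgeR). Such genes may also be ChREBP targets, so the median describes only these 15 genes. Of the 7 higher with TMM, *Scd2* and *Acly* were called in every fit with a library left out. The other 5 all lost their call without WT replicate 1 (adjusted p between 0.0522 and 0.081 by edgeR) and without WT replicate 3. *Acly* was not called under the epithelial scaling (0.54, adjusted p = 0.081). *Scd2*, a desaturase of fatty acids, had 48.7, 43.4, 46.6, 71.7 and 51.3 CPM in WT and 237.8, 614.3, 832.4, 450.9 and 619.5 CPM in KO replicates 1 to 5, a log2 fold change of 3.40 (SE 0.31, adjusted p = 0.000126 by edgeR). *Scd1* rose by 2.58 (adjusted p = 0.0395), a call lost in 7 of 10 fits with a library left out and a value of 1.59 without KO replicate 4. *Gpd1*, the glycerol phosphate dehydrogenase, fell from 534.3 ± 114.2 to 240.8 ± 26.4 CPM (-1.15, adjusted p = 0.000763), and *Tm6sf2*, which takes part in lipoprotein secretion, from 388.7 ± 38.9 to 222.5 ± 75.2 CPM (-0.80, adjusted p = 0.0185). *Fasn*, the fatty acid synthase, had 207.7 ± 108 and 511.6 ± 435.9 CPM and was not called (adjusted p = 0.0704), and *Mlx*, the partner of ChREBP on DNA, had 95.2 and 80.2 CPM and was not called either, but was called lower under the epithelial scaling (-0.71, adjusted p = 0.000648).

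Of 14 transcription factors of enterocytes 4 were lower, 2 were higher and 8 were not called, against 6 lower and 1 higher when scaled to the epithelial reference genes. *Gata4*, which marks the proximal intestine, had 216.7, 201.3, 200.1, 166.3 and 160.3 CPM in WT and 59.4, 13.8, 5.24, 0.572 and 1.47 CPM in KO replicates 1 to 5. As in *Slc2a2* and *Slc2a7*, KO replicates 1 and 2 were the highest of the KO libraries, and its log2 fold change was -3.56 (SE 0.95, adjusted p = 0.0177 by edgeR) and -5.17 without KO replicate 1. *Hnf4g* fell from 508.3 ± 57.6 to 214.2 ± 82.9 CPM (-1.25, adjusted p = 0.00318). *Cdx1* and *Cdx2*, which rise from proximal to distal intestine, were higher, by 0.92 and 0.78. Scaled to the epithelial reference genes, *Cdx1* was at 0.48 and still called, and *Cdx2* was at 0.33 and was not (adjusted p = 0.0726 by edgeR). *Hnf4a*, with 861 ± 71.5 and 1039 ± 244.4 CPM, and *Klf4* were not called. None of the 3 tested genes of sweet taste sensing was called, among them *Trpm5* with 19.1 and 43.2 CPM and *Plcb2* with 19.3 and 18.1 CPM. Under the epithelial scaling *Tas1r3*, a subunit of the sweet taste receptor, was called lower (-0.62, adjusted p = 0.0454 by edgeR). By DESeq2, which also tested *Gnat3*, the taste G protein left out by the filter, that gene was called higher (3.61, adjusted p = 0.000228), as were 16.3% of the genes DESeq2 tested, with 0.23 ± 0.217 CPM in WT and 2.87 ± 3.16 CPM in KO mice.

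**Figure D4:**
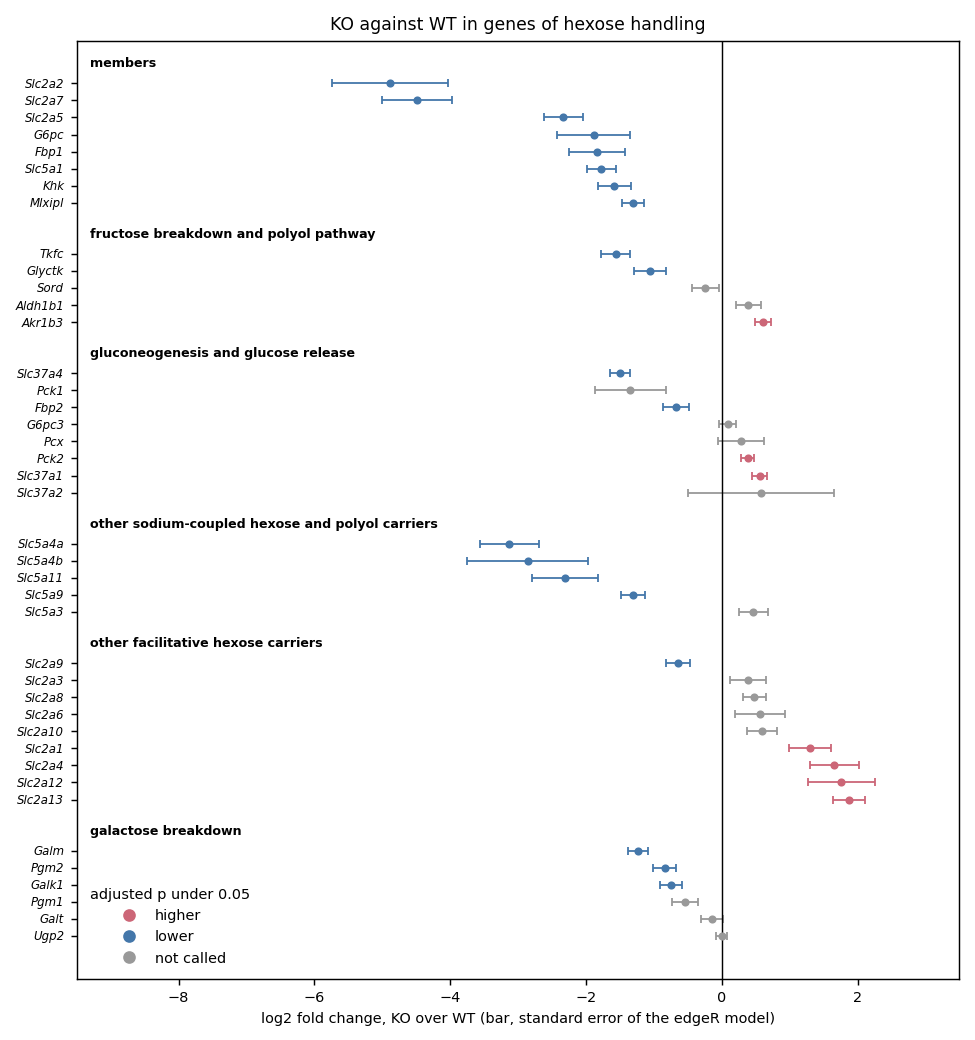
Log2 fold change of KO over WT (x axis, bar for the standard error of the edgeR model) for the 8 genes (members) and 5 lists of hexose handling (y axis), coloured by whether the adjusted p was under 0.05 and in which direction. The 8 genes lie between -4.89 and -1.31, the sodium-coupled carriers lie mostly below 0 and the other facilitative carriers mostly above.

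The direction of the 8 genes held under all 9 other settings and with each of the 10 libraries left out. With the mean log2 CPM of the smooth muscle markers as a covariate, however, none of the 8 and none of the 89 other pathway genes was called, and 18 of all tested genes were. The smooth muscle score did not overlap between the groups, at 6.68 to 7.44 in WT and 8.06 to 9.47 in KO libraries. This fit therefore cannot separate the score from the genotype. In that fit the log2 fold change was -2.99 for *Slc2a2*, -3.08 for *Slc2a7*, -1.43 for *Slc2a5* and -1.03 for *Slc5a1*, smaller than without the covariate. *Khk* stayed at -1.58 with an SE of 0.46 in place of 0.24 (adjusted p = 0.184 by edgeR), and *Mlxipl* was at -1.68 (adjusted p = 0.06). When counts were scaled to the epithelial reference genes, which shifted the median of all genes to -0.42, all 8 were lower, from -5.34 to -1.75.

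**Figure D5:**
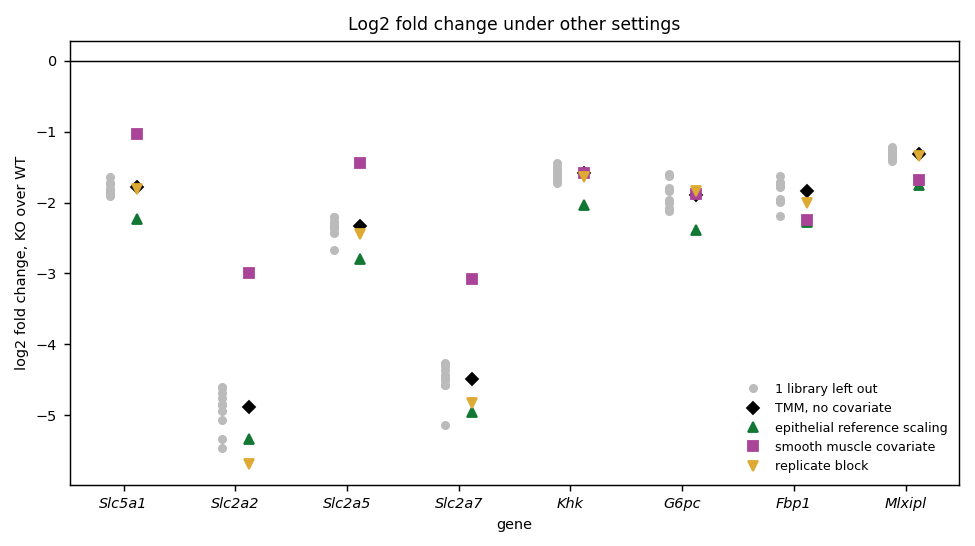
Log2 fold change of KO over WT (y axis) for the 8 genes (x axis) with TMM and no covariate (black), with 1 library left out (grey), with scaling to the epithelial reference genes (green), with the smooth muscle score as a covariate (purple) and with the replicate number as a block (yellow). All values lie below 0, and the covariate moves the 4 carriers furthest.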

How the data were processed

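Read counts per Ensembl gene ID were used as the authors deposited them, as whole numbers with no normalization, from 10 libraries of single mice. Libraries were made with a SMARTER mRNA-Seq kit per the labels. The submitters' processing notes name FastQC 0.11.9, Trimmomatic, HISAT2 2.0.4, SAMtools 1.3.1, DESeq2 1.14.1 and the builds GRCm38 and mm10. For the counter, its annotation and its use of strand, the sources used here give nothing, so that reads of overlapping genes may be counted for either.

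GENCODE M21 (GRCm38) gave a symbol for 34490 of the 35275 IDs. KO and WT were compared in R 4.3.3 by the quasi-likelihood test of edgeR 4.0.16 after TMM. The filter filterByExpr, with a minimum count of 10 and a minimum total of 15, left 15610 genes, over which p was adjusted by Benjamini-Hochberg with a threshold of 0.05. All 8 genes passed the filter. Standard errors are those of the model. CPM are relative to TMM-scaled library sizes, and log2 CPM has a prior count of 2. The exact permutation test covers all 252 splits into 5 and 5. A count of 0 allows up to 3 counts, and no member was at 0 in any library. The scripts were tested on simulated data. P-values measure the spread between mice of each group. Promoters came from RefSeq (GRCm38.p6).

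The members and gene lists were chosen with earlier results of these data known, and 2 further pathway genes are not reported here. Named genes are the 8 members, *Slc39a14*, in each pathway list at most the 4 called and 2 not called genes with the highest mean CPM, in each marker list at most the 3 with the highest mean CPM, and the 3 genes nearest to each member. Outside this rule, *Onecut2*, *Acly*, *Amy2a5*, *Pklr*, *Slc37a2*, *Slc5a10*, *Tas1r3* and *Gnat3* were picked with their values in view, and genes that overlap a member are named for their position. Alternatives were RLE, library size or epithelial reference scaling, DESeq2 1.42.0, 2 other filters, robust dispersion, each library left out, the replicate number as a block, and a smooth muscle covariate.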

Additional observations from a re-analysis of the deposited data

Results flagged for a closer look

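None of the 16 groups of 5 libraries over the 8 hexose genes held a library that stood apart by Dixon's test. Over those and 21 related genes, 5 of 58 groups did, where chance gives about 1 in 20. *Slc39a14* had 160.1 CPM in KO replicate 1, against 78.5 to 93.8 CPM in the other KO libraries. *Slc5a4b* had 155.3 CPM in KO replicate 1, against 3.46 to 24.0 CPM in the others. *Slc5a11* had 82.6 CPM in KO replicate 1, against 7.18 to 27.7 CPM. *Slc37a2* had 79.3 CPM in KO replicate 2, against 2.43 to 3.49 CPM in the others. *Slc5a10*, which was below the filter, had 0.66 CPM in WT replicate 4, against 0.311 to 0.392 CPM in the other WT libraries.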

How the results depend on the processing

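Of 152 values of the 8 genes under 9 other settings and 10 left-out libraries, 139 kept their direction and call, 13 kept only their direction and 0 reversed. With the smooth muscle covariate 18 genes were called (10 higher, 8 lower), 0 of the 8 genes and 0 other pathway genes (0 higher, 0 lower). In that fit the log2 fold changes were -1.03 for *Slc5a1* (adjusted p = 0.177 by edgeR), -2.99 for *Slc2a2* (0.288), -1.43 for *Slc2a5* (0.189), -3.08 for *Slc2a7* (0.123), -1.58 for *Khk* (0.184), -1.88 for *G6pc* (0.479), -2.25 for *Fbp1* (0.263) and -1.68 for *Mlxipl* (0.06), and -0.60 for *Slc39a14* (0.451). The cause was not tested. Scaling to the epithelial reference genes called 7801 genes (717 higher, 7084 lower) with a median of -0.42, and 11 other pathway genes higher and 43 lower. Scaling by library size made 69.4% of the calls higher (3608 against 1589), in place of 53.5%.

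With a library left out, 3207 to 5507 genes were called, 1634 (without WT replicate 2) to 2944 higher and 1573 to 2563 lower, 7 or 8 of the 8 genes, and 40 to 54 other pathway genes, 15 to 23 higher and 25 to 31 lower. Of 49 called pathway genes 39 kept their call in every such fit. The log2 fold changes ran from -1.90 to -1.64 for *Slc5a1*, -5.46 to -4.60 for *Slc2a2*, -2.66 to -2.20 for *Slc2a5*, -5.14 to -4.26 for *Slc2a7*, -1.72 to -1.44 for *Khk*, -2.11 to -1.60 for *G6pc*, -2.20 to -1.62 for *Fbp1* and -1.41 to -1.22 for *Mlxipl*. *G6pc* was the one that lost its call, without WT replicate 1 (-1.80), 2 (-1.83) or 3 (-1.60) or KO replicate 2 (-1.81).

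Libraries of the same number share only a number: the correlation of their deviations was between -0.167 and 0.177, and 1 of 5 numbers matched itself best. With this replicate block 3848 genes were called in place of 4660, and *G6pc* (-1.84, adjusted p = 0.106 by edgeR) lost its call. *Slc2a2* moved from -4.89 to -5.70 (adjusted p = 0.00421 by edgeR). A covariate from 4 Y-linked genes was not run, since none had more than 1 count in a library. With the length of the longest principal transcript, an alternative chosen after seeing the data, the level per kb moved to 96.2 for *Slc2a7* in WT and to 67.7 in WT and 27.3 in KO for *Mlxipl*.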
